A study of Homo sapiens with 12 samples.

Results

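The genes described here are 10 that encode chaperones and co-chaperones of the endoplasmic reticulum (ER): HSPA5, HSP90B1, CALR, CANX, HYOU1, DNAJB9, DNAJB11, DNAJC3, SDF2L1 and MANF. They were taken from the table by gene name, with earlier results of these data known, and are 10 of the 63187 genes in the deposited table. All 10 passed the filter on low values, as did 9270 genes in all: 3 or more of the 12 libraries had to reach a normalized count of 10. SDF2L1 and HYOU1 reached it only in libraries without glucose, so they could be tested only by being high there. The libraries, 3 for each of 4 media, were made from total RNA of MDA-MB-231 cells, a long-established line from a human breast adenocarcinoma with a mesenchymal-like profile. Cells grown with 10% serum were moved for 36 h to medium with 3% serum. Both nutrients were in full medium (glucose at 25 mM, glutamine at 4 mM) and neither (0 mM) in deficient medium. Glucose-only medium held 25 mM glucose and 0 mM glutamine, and glutamine-only medium held 4 mM glutamine and 0 mM glucose.

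Proteins bound for secretion or for membranes fold inside the ER, where many receive sugar chains built from glucose-derived precursors. HSPA5 (BiP, also named glucose-regulated protein) is the ER member of the HSP70 family, and HSP90B1 (GRP94) is the ER member of the HSP90 family. Both owe their older names to their induction in cells starved of glucose, and unfolded protein in the ER raises their transcription through the sensors ATF6, IRE1 (gene ERN1) and PERK (gene EIF2AK3). CALR and CANX bind newly made glycoproteins through their sugar chains. HYOU1 exchanges nucleotide on HSPA5, and DNAJB9, DNAJB11 and DNAJC3 are J-domain partners of HSPA5. SDF2L1 associates with DNAJB11, and MANF binds HSPA5 and can be secreted.

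The 12 libraries held 875033 to 1473587 recovered reads, of which 1011 to 6987 per library fell on the 10 genes, and 1 read was worth a normalized count of 0.661 to 1.30. Separate cultures are not stated for libraries of one medium, which the labels tell apart by a letter, so p-values measure the spread between libraries, which may be technical. In bulk RNA, fewer cells of a kind and less RNA per cell cannot be told apart. Of the markers checked, FN1 reached 1204 normalized counts and the luminal keratin gene KRT18 reached 396, each the highest of its list. Of the 5 markers of this line 1 stayed under 10 in every library, as did 4 of 8 luminal and 2 of 4 endothelial markers. All 6 fibroblast, all 6 blood and all 5 secretory-cell markers stayed under 10 in every library, while the endothelial marker PECAM1 reached 19.7.

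Promoter sequence is given for 7 of the genes, because the letters of the ER stress element set some of them apart from others. Each window runs from 250 bases before the RefSeq transcription start to 50 after it, 5′ to 3′ on the coding strand of GRCh38.p14. Capitals mark matches, on either strand, to the ER stress element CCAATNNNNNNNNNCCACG, to the second ER stress element (ATTGG, any 1 base, CCACG) or to the unfolded protein response element core TGACGTGG. The windows lie at chr9:125241294-125241593 (HSPA5), chr12:103930160-103930459 (HSP90B1), chr19:12938359-12938658 (CALR), chr5:179698679-179698978 (CANX), chr11:119057156-119057455 (HYOU1), chr22:21642052-21642351 (SDF2L1) and chr7:108569624-108569923 (DNAJB9). HSPA5 and HYOU1 lie on the minus strand and the other 5 on the plus strand.
HSPA5: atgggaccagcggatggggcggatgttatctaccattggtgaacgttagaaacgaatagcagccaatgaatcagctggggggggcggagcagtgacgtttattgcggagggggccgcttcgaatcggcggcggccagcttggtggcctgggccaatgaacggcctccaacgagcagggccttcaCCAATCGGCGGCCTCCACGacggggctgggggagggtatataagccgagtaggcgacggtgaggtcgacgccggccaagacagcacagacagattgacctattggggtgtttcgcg
HSP90B1: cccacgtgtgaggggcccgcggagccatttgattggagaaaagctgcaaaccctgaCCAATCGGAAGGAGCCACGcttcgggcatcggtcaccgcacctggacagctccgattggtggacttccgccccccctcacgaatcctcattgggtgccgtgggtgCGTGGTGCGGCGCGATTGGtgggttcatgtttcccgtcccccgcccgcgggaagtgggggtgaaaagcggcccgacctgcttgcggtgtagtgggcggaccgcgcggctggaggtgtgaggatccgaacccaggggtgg
CALR: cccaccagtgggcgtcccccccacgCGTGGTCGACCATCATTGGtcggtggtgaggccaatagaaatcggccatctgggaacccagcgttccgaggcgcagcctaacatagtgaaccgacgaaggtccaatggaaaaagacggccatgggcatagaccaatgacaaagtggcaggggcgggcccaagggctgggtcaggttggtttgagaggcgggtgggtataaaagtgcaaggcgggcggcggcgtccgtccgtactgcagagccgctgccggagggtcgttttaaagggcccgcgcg
CANX: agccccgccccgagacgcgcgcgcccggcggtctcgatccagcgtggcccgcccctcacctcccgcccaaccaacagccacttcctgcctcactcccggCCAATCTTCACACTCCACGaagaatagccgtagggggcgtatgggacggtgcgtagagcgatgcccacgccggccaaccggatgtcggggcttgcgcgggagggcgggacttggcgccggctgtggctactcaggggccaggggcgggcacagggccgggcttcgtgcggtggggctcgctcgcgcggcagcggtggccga
HYOU1: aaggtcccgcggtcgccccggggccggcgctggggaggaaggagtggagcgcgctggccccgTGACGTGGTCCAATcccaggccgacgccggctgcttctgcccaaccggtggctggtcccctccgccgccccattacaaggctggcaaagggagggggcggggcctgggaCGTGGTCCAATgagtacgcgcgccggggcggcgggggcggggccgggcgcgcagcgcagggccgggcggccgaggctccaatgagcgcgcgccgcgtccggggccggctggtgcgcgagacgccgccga
SDF2L1: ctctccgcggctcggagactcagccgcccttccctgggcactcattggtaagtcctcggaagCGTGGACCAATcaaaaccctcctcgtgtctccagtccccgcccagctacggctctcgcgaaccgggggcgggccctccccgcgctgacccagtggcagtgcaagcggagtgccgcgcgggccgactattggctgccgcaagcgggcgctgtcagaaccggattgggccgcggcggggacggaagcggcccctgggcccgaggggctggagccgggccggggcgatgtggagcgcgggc
DNAJB9: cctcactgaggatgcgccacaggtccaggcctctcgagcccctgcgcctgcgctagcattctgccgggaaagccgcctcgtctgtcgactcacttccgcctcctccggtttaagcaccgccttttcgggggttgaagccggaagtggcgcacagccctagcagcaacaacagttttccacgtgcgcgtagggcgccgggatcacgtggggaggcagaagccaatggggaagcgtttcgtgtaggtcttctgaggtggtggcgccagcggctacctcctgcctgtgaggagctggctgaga

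The first ER stress element was found at 66 to 48 bases before the start of HSPA5. HSP90B1 held it at 194 to 176 bases and again, on the opposite strand, at 89 to 71 bases before its start. CALR held it on the opposite strand at 225 to 207 bases. In CANX it stood at 151 to 133 bases of the window shown and in 3 of the 4 RefSeq windows of that gene. The second element was found, each time on the opposite strand, in HYOU1, at 185 to 175 and at 79 to 69 bases, and in SDF2L1, at 188 to 178 bases. In HYOU1 the farther of its copies overlapped the match to TGACGTGG at 188 to 181 bases. One or other ER stress element was thus in 6 of the 10 genes, against 0.131% of all 35116 windows and 0.161% of the 27305 genes with a window. Singly, the first was in 0.0769% of windows, the second in 0.0541% and TGACGTGG in 0.729%. No match to these 3 motifs was found in the windows of DNAJB9, DNAJB11, DNAJC3 and MANF, and TGATGNAAN, an amino acid response element, was in 0 of the 10 genes and 3.61% of windows. A match describes letters only and was not tested for binding. Both the motifs and the 10 genes were chosen by what was known of ER stress, so these shares are no independent support.

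The first question of the design was what loss of glucose did while glutamine was supplied. Of the 10 genes, 9 were higher in glutamine-only than in full medium and 0 were lower, with CANX not passing the test. Among all genes tested 10.8% were higher and 11.6% lower. The test was limma on log2(normalized count + 1), with Benjamini-Hochberg adjustment over 9270 genes and a threshold of 0.05, and log2 changes below are on that scale with their standard error (SE). The median change of the 10 genes was 2.04, beside -0.01 for all genes. Without SDF2L1 and HYOU1, which passed the filter only through the media without glucose, 7 of 8 were higher, with a median of 1.73. Gene positions below are those of RefSeq on GRCh38.p14.

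**Figure D1:**
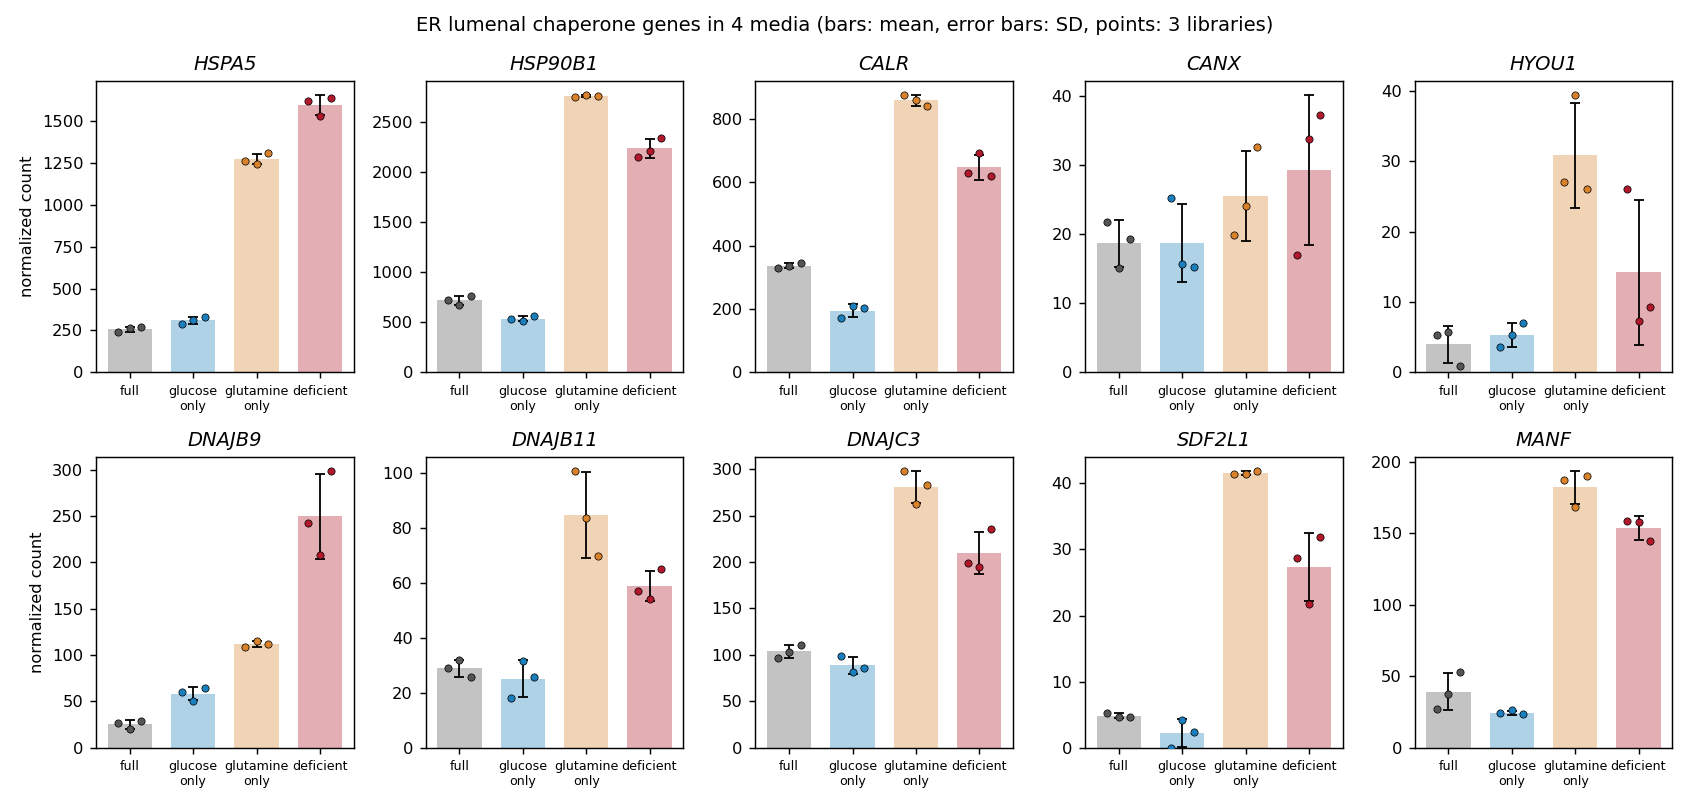
Normalized counts of the 10 ER chaperone genes (y axis, linear, each panel from 0) in full, glucose-only, glutamine-only and deficient medium. Bars are means, error bars SD and points the 3 libraries of a medium. Apart from CANX, each gene's 6 libraries without glucose lie above its 6 libraries with glucose.

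HSPA5, at chromosome 9, 125234853 to 125241343, had normalized counts of 239, 261 and 268 in the 3 full-medium libraries (A, B and C) and 1266, 1248 and 1310 in the 3 glutamine-only libraries. All 3 glutamine-only libraries lay far above the full-medium ones, and the rise was 2.31 ± 0.09 in log2, a 4.97-fold change (adjusted p = 3.63e-17). HSP90B1, at chromosome 12, 103930410 to 103947926, gave 724, 670 and 755 in full medium and 2743, 2767 and 2757 in glutamine-only medium. Its libraries did not overlap either, and it rose by 1.94 ± 0.10, or 3.85-fold (adjusted p = 3.00e-15).

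Of the lectin chaperones, CALR (chromosome 19, 12938609 to 12944489) had 329, 336 and 346 normalized counts in full medium against 877, 860 and 842 in glutamine-only medium. It rose by 1.35 ± 0.10 (adjusted p = 8.44e-12). CANX (chromosome 5, 179678656 to 179731641) had 21.8, 15.04 and 19.3 in full medium and 19.8, 24.1 and 32.6 in glutamine-only medium. The CANX values overlapped, and its difference of 0.41 ± 0.28 did not pass the test (adjusted p = 0.318; 95% interval -0.16 to 0.99).

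Among the co-chaperones, DNAJB9 (chromosome 7, 108569874 to 108574850) went from 26.5, 19.7 and 29.4 in full medium to 108, 116 and 112 in glutamine-only medium. DNAJB9 thereby rose 4.37-fold (log2 2.13 ± 0.15, adjusted p = 6.65e-12), with no overlap. DNAJC3 (chromosome 13, 95677139 to 95794988) had 96.5, 103 and 111 against 298, 263 and 282, a rise of 1.43 ± 0.11 in log2. DNAJB11 (chromosome 3, 186570720 to 186585793) had 29.1, 32.0 and 25.7 against 101, 83.8 and 69.9, a rise of 1.51 ± 0.19. Both J-domain genes were separated between the media, with adjusted p-values of 4.79e-11 for DNAJC3 and 4.51e-07 for DNAJB11. The exchange factor gene HYOU1 (chromosome 11, 119044188 to 119057205) was near the floor of detection in full medium, at 5.29, 5.64 and 0.917, the last being 1 read. In glutamine-only medium it reached 27.1, 39.5 and 26.1, a rise of 2.86 ± 0.45 (adjusted p = 1.87e-05).

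SDF2L1 (chromosome 22, 21642302 to 21644299) had 5.29, 4.70 and 4.59 normalized counts in full medium and 41.5, 41.4 and 41.9 in glutamine-only medium. The 3 libraries of each medium stood close together, and SDF2L1 rose by 2.87 ± 0.41 (adjusted p = 4.49e-06), the largest of the 10 changes in this comparison and nearly the same as that of HYOU1. MANF (chromosome 3, 51385291 to 51389397) had 27.1, 37.6 and 53.2 against 188, 169 and 190. MANF rose by 2.23 ± 0.16 (adjusted p = 1.18e-11), although its full-medium libraries were spread more widely than those of most of these genes.

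The same loss of glucose was next examined without glutamine, by comparing glucose-only with deficient medium. Here 0 of the 10 genes were higher with glucose and 9 were lower, CANX again not passing, while over all genes 20.1% were higher and 23.2% lower. The median difference of the 10 genes was -1.90 in log2. Without SDF2L1 and HYOU1 it was 7 of 8 genes that were lower, again with a median of -1.90. HSPA5 had 286, 313 and 327 normalized counts in glucose-only medium and 1623, 1530 and 1643 in deficient medium, a difference of -2.37 ± 0.09 (adjusted p = 6.15e-18). For HSP90B1 the values were 532, 514.5 and 556 against 2148, 2211 and 2340, a difference of -2.06 ± 0.10 (adjusted p = 3.50e-16). For neither chaperone did the media overlap. CALR had 170, 210 and 203 against 629, 694 and 620, a difference of -1.74 ± 0.10 (adjusted p = 1.27e-14).

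For DNAJB9, glucose-only libraries held 60.2, 50.3 and 64.7 and deficient libraries 242, 208 and 299, a difference of -2.07 ± 0.15. MANF had 24.1, 26.2 and 23.5 against 159, 158 and 144, a difference of -2.60 ± 0.16. In both genes the media were fully separated, with adjusted p-values of 5.16e-12 for DNAJB9 and 1.84e-13 for MANF. DNAJC3 and DNAJB11 were lower with glucose by nearly equal amounts, -1.23 ± 0.11 and -1.23 ± 0.19. SDF2L1 was at 0, 4.19 and 2.35 in glucose-only medium, 6 reads in all, and at 28.6, 21.7 and 31.8 in deficient medium. Its difference of -3.44 ± 0.41 (adjusted p = 9.14e-08) rests on those few reads and was the largest of the 10.

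HYOU1 and CANX were the least certain in this comparison. HYOU1 had 3.61, 5.24 and 7.06 in glucose-only medium and 26.0, 7.25 and 9.32 in deficient medium, so that library A of the deficient medium stood apart. Its difference of -1.10 ± 0.45 passed narrowly (adjusted p = 0.0478), and without that library it was -0.59 (adjusted p = 0.348). CANX had 25.3, 15.7 and 15.3 against 16.9, 33.8 and 37.3, which overlap, with a difference of -0.58 ± 0.28 (adjusted p = 0.0964). Library A of the deficient medium was the low one for CANX and the high one for HYOU1, and without it the CANX difference was -0.92 and passed (adjusted p = 0.00965).

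Across both comparisons, the 6 libraries without glucose lay above the 6 with glucose, with no overlap, for 9 of the 10 genes, and for 7 of the 8 other than SDF2L1 and HYOU1. Over all 9270 genes 3.97% were separated upward in this way and 3.36% downward. The gap between the highest library with glucose and the lowest without was 4.11-fold for SDF2L1, 3.82-fold for HSPA5 and 2.85-fold for HSP90B1, but only 1.03-fold for HYOU1.

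Whether glutamine altered the effect of glucose was tested by the interaction, the log2 change from glucose-only to deficient medium minus the change from full to glutamine-only medium. It was higher for 1 of the 10 genes (CALR) and lower for 1 (HYOU1), against 15.5% and 11% of all genes, and 8 did not pass. Without SDF2L1 and HYOU1, 1 of 8 was higher and 0 were lower. HSPA5 had a glucose effect of 2.31 with glutamine and 2.37 without it, and an interaction of 0.06 with a 95% interval from -0.21 to 0.33 (adjusted p = 0.785). After quantile normalization that value was -0.45 and passed (adjusted p = 0.0202), so the direction for HSPA5 depends on the scaling. DNAJC3 passed there as well, at -0.50 (adjusted p = 0.0202). For HSP90B1 the interaction was 0.12, with an interval from -0.16 to 0.40, and for DNAJB9 it was -0.06, from -0.49 to 0.38. The interval was widest, apart from that of HYOU1, for SDF2L1, from -0.61 to 1.75.

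The CALR interaction was 0.39 ± 0.14 (adjusted p = 0.0340): without glutamine its rise on loss of glucose was somewhat larger, from a lower start. It did not pass with edgeR (0.36, adjusted p = 0.0719) or DESeq2 (0.34, adjusted p = 0.155) on the recovered reads, and it was -0.03 after quantile normalization. For HYOU1 the interaction was -1.76 ± 0.64 (adjusted p = 0.0400), also not passing with edgeR (-1.60, adjusted p = 0.0925), and it was -1.17 (adjusted p = 0.141) without library C of full medium, in which HYOU1 had 1 read.

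Most relatives of these chaperones in the cytosol had another pattern, with a larger rise on loss of glucose where glutamine was absent. HSPA8, the constitutive cytosolic HSP70, had 790, 699 and 860 normalized counts in full medium, 629, 607 and 623 in glucose-only, 979, 1063 and 1094 in glutamine-only and 3807, 3376 and 4081 in deficient medium. Its rise was 0.42 ± 0.10 on loss of glucose with glutamine present, and its interaction was 2.17 ± 0.15 (adjusted p = 7.22e-12). HSP90AA1, the inducible cytosolic HSP90, averaged 898 ± 37.7 in full medium, 800 ± 38.9 in glutamine-only and 6052 ± 491 in deficient medium (SD, n = 3), with an interaction of 3.38 ± 0.14. Both stayed positive under the 3 other scalings, at 1.86 to 2.14 for HSPA8 and 3.08 to 3.35 for HSP90AA1. Of 14 cytosolic counterparts tested, 13 had a higher interaction and 0 a lower one, beside 15.5% and 11% of all genes. Their median interaction was 2.05, beside 0.06 for all genes. In glutamine-only against full medium, 6 of the 14 were higher and 0 lower, beside 10.8% and 11.6% of all genes. Some of these rose strongly with glutamine present: HSPA6 by 6.01 ± 0.34, from a mean of 0.612 to 90.8, and DNAJB1 by 1.31 ± 0.11. Their interactions were 3.20 ± 0.48 and 4.64 ± 0.15. HSPA6 was at most 1.835 in full and 2.096 in glucose-only medium, so it passed the filter only through media without glucose.

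**Figure D2:**
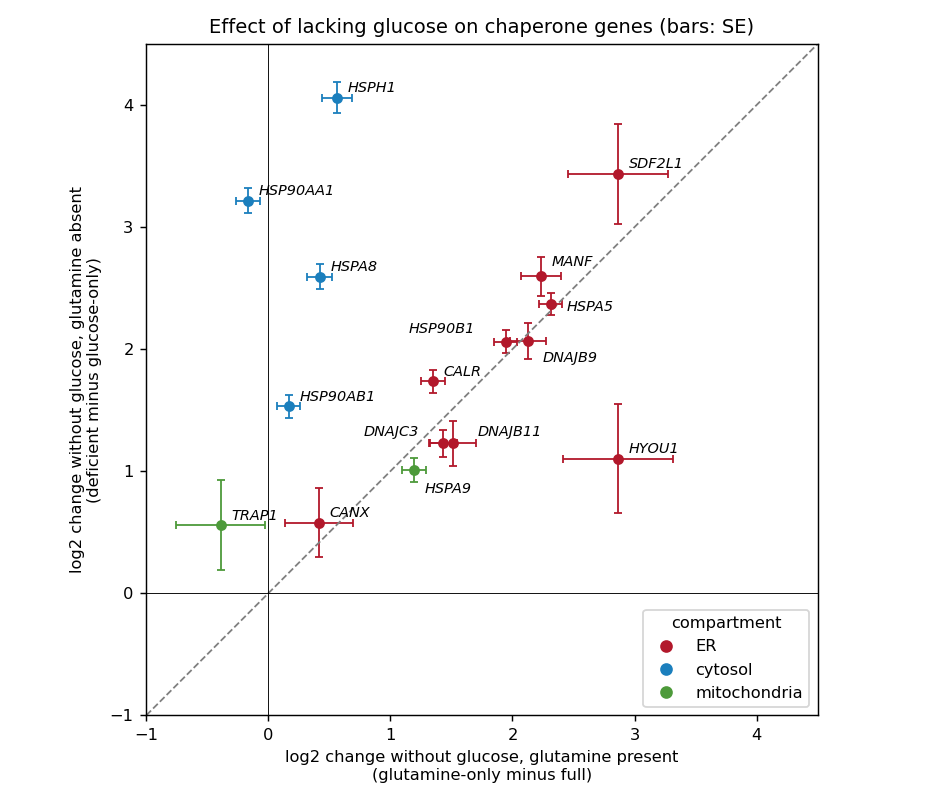
Log2 change on loss of glucose with glutamine present (x axis, glutamine-only minus full) and absent (y axis, deficient minus glucose-only) for the 10 ER genes (red), cytosolic relatives (blue) and mitochondrial relatives (green), with SE bars. The dashed line marks equal changes. HSPA5, HSP90B1 and DNAJB9 sit on or near it, HSPA8, HSP90AA1, HSP90AB1 and HSPH1 lie well above it, and HYOU1 lies below it.

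Ratios within a library do not depend on the scaling. HSP90AA1 had 1.26 ± 0.10 (SD, n = 3) times the normalized count of HSP90B1 in full medium and 1.22 ± 0.10 times in glucose-only medium. In glutamine-only medium the ratio was 0.290 ± 0.0132 and in deficient medium 2.71 ± 0.115. The ratio of HSPA8 to HSPA5 likewise had its lowest value in glutamine-only medium, at 0.820 ± 0.0414, against 3.07 ± 0.341 in full, 2.02 ± 0.163 in glucose-only and 2.35 ± 0.139 in deficient medium. The glutamine-only libraries were below all other libraries in both ratios. They were also lowest in the ratio of the mitochondrial HSPA9 to HSPA5, at 0.255 to 0.267. The next lowest were the deficient libraries, at 0.324 to 0.347. The difference between the interactions of ER and cytosolic genes was not itself tested.

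HSPA9, the mitochondrial HSP70, averaged 145 ± 12.8 in full, 265 ± 2.60 in glucose-only, 333 ± 13.04 in glutamine-only and 535.5 ± 37.1 in deficient medium. Unlike HSPA5 it was well above full medium in glucose-only medium, by 0.87 ± 0.10 (adjusted p = 7.34e-08). Like HSPA5, HSPA9 was higher without glucose in both settings, though by less. Its change was 1.19 ± 0.10 in glutamine-only against full medium and -1.01 ± 0.10 in glucose-only against deficient medium. The HSPA9 interaction of -0.18 ± 0.14 did not pass (adjusted p = 0.343), but it was -0.63 and passed after quantile normalization (adjusted p = 0.00141). TRAP1, the mitochondrial HSP90, stayed between 5.78 and 24.7 in all libraries and passed in none of the 7 comparisons.

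The effect of glutamine was smaller and divided the 10 genes. With glucose present, glucose-only against full medium, 2 genes were higher without glutamine, 4 were lower and 4 did not pass, while 9.44% of all genes were higher and 13.5% lower. Without SDF2L1 and HYOU1, 2 of 8 genes were higher and 3 lower. DNAJB9 rose by 1.19 ± 0.15 (2.29-fold, adjusted p = 6.21e-07), with all 3 glucose-only libraries, at 50.3 to 64.7, above all 3 full-medium libraries, at 19.7 to 29.4. HSPA5 was higher by 0.27 ± 0.09 (adjusted p = 0.0361), but this was 0.05 (adjusted p = 0.799) when libraries were scaled to equal totals, and it did not pass with edgeR (0.28, adjusted p = 0.0685) or DESeq2 (0.29, adjusted p = 0.0749).

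CALR fell by 0.80 ± 0.10 (adjusted p = 3.12e-07), from 329 to 346 in full medium to 170 to 210 in glucose-only medium. HSP90B1 fell by 0.42 ± 0.10 (adjusted p = 0.00183), with glucose-only libraries at 514.5 to 556 and full-medium libraries at 670 to 755. These 2 falls kept their direction and passed under equal totals, quantile normalization, edgeR and DESeq2. MANF was lower, with a difference of -0.60 ± 0.16 (adjusted p = 0.00717), but without library C of full medium, its highest, the difference was -0.37 (adjusted p = 0.101). SDF2L1 was lower, with a difference of -1.18 ± 0.41 (adjusted p = 0.0369), and without the glucose-only library at 0 the difference was -0.49 (adjusted p = 0.311). With DESeq2 neither passed (adjusted p = 0.0987 for MANF and 0.349 for SDF2L1). DNAJC3 (-0.22 ± 0.11), DNAJB11 (-0.22 ± 0.19), CANX (-0.02 ± 0.28) and HYOU1 (0.51 ± 0.45) did not pass. Under equal totals the split was 1 higher (DNAJB9) and 5 lower, DNAJC3 then being lower as well (-0.44, adjusted p = 0.0186).

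Without glucose, glutamine-only against deficient medium, 5 genes were higher with glutamine, 2 were lower and 3 did not pass, against 19.9% and 21.6% of all genes. HYOU1, 1 of the 5, passed the filter through the glutamine-only libraries and library A of the deficient medium. Without SDF2L1 and HYOU1, 4 of 8 genes were higher and 2 lower. The 2 that were lower with glutamine were DNAJB9 (-1.13 ± 0.15, adjusted p = 6.35e-07) and HSPA5 (-0.33 ± 0.09, adjusted p = 0.00593). DNAJB9 kept its call under every scaling tried, at -0.85 to -1.14. HSPA5 did not, with -0.04 (adjusted p = 0.799) under equal totals and -0.01 (adjusted p = 0.964) after quantile normalization. CALR (0.41 ± 0.10), DNAJC3 (0.42 ± 0.11), HSP90B1 (0.30 ± 0.10), DNAJB11 (0.51 ± 0.19) and HYOU1 (1.25 ± 0.45) were higher with glutamine, with adjusted p-values from 0.00117 for CALR to 0.0305 for DNAJB11. Leaving out single libraries ended the call for HYOU1 and DNAJB11, with adjusted p up to 0.144 for HYOU1 without library B of the deficient medium and 0.171 for DNAJB11 without library A of the glutamine-only medium. The call for HSP90B1 was lost with a constant prior variance (adjusted p = 0.0552). SDF2L1 (0.60 ± 0.41), MANF (0.24 ± 0.16) and CANX (-0.15 ± 0.28) did not pass. Under equal totals 6 were higher, MANF then being one of them (0.52, adjusted p = 0.0197), and DNAJB9 alone was lower.

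**Figure D3:**
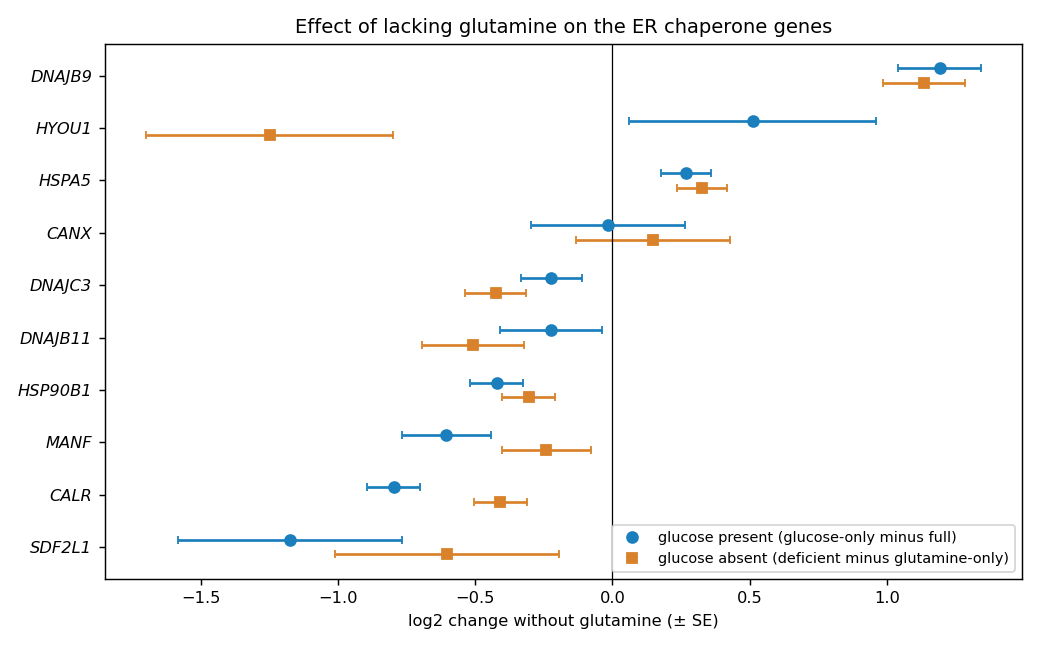
Log2 change on loss of glutamine (x axis, ± SE) for each ER chaperone gene, with glucose present (circles, glucose-only minus full) and absent (squares, deficient minus glutamine-only). DNAJB9 lies near 1.19 and 1.13 on the positive side, HSPA5 at 0.27 and 0.33, and HSP90B1, CALR, MANF, SDF2L1, DNAJB11 and DNAJC3 lie below 0 in both settings.

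Under scaling to equal totals, the median over all genes shifted by -0.12 in glutamine-only against full, 0.17 in glucose-only against deficient, -0.21 in glucose-only against full, 0.27 in glutamine-only against deficient and -0.39 in deficient against full medium. With it, 629 genes were higher and 1360 lower in glutamine-only against full medium, where the authors' size factors gave 1005 and 1078. The same counts were 2437 and 1404 against 1859 and 2149 in glucose-only against deficient, 396 and 2154 against 875 and 1249 in glucose-only against full, 2826 and 940 against 1844 and 2000 in glutamine-only against deficient, 1166 and 3777 against 2440 and 2364 in deficient against full, and 907 and 245 against 766 and 468 in glutamine-only against glucose-only medium. For the interaction quantile normalization gave 1057 and 1255 against 1438 and 1020. For the ER chaperones the scaling left the calls on loss of glucose in place, with 9 higher and 0 lower in glutamine-only against full medium and 8 lower in glucose-only against deficient medium, HYOU1 no longer passing (-0.94, adjusted p = 0.0704).

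HSPA5 and HSP90B1 changed by unequal amounts with glutamine within libraries, whatever the scaling, although the direction of HSPA5 itself depended on it. HSP90B1 had 2.81 ± 0.235 (SD, n = 3) times the normalized count of HSPA5 in full medium and 1.74 ± 0.115 times in glucose-only medium. Without glucose the ratio was 2.16 ± 0.0559 with glutamine and 1.40 ± 0.0652 without it. In both pairs the libraries with glutamine lay above those without, from 2.57 to 3.03 against 1.64 to 1.87, and from 2.11 to 2.22 against 1.32 to 1.45. With 3 libraries against 3 an exact permutation test cannot give a p under 0.1. DNAJB9 had 0.0350 ± 0.00491 times the normalized count of HSP90B1 in full and 0.0406 ± 0.00115 times in glutamine-only medium, but 0.109 ± 0.00991 times in glucose-only and 0.112 ± 0.0170 times in deficient medium. This ratio differed between media with and without glutamine and hardly between media with and without glucose.

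In deficient against full medium, 9 of the 10 genes were higher and 0 lower, with 26.3% and 25.5% of all genes, and the median change was 1.63. Without SDF2L1 and HYOU1 it was 7 of 8 genes, with a median of 1.32. The order differed from that in glutamine-only medium, which was compared with the same full-medium libraries. DNAJB9 had the largest change, 3.26 ± 0.15 or 9.59-fold, followed by HSPA5 at 2.64 ± 0.09 or 6.23-fold. SDF2L1 rose by 2.26 ± 0.41, MANF by 1.99 ± 0.16, HSP90B1 by 1.64 ± 0.10, HYOU1 by 1.62 ± 0.45, DNAJC3 by 1.01 ± 0.11, DNAJB11 by 1.00 ± 0.19 and CALR by 0.94 ± 0.10. For HYOU1 the call was lost without library A of the deficient medium (1.10, adjusted p = 0.0569), and CANX, at 0.56 ± 0.28 (adjusted p = 0.0943), passed without that library (0.90, adjusted p = 0.00856).

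Setting the media with a single nutrient against each other, glutamine-only against glucose-only, 9 genes were higher and 0 lower (7 of 8 without SDF2L1 and HYOU1), with 8.26% and 5.05% of all genes. The changes ran from 0.93 ± 0.15 for DNAJB9 to 2.84 ± 0.16 for MANF and 4.04 ± 0.41 for SDF2L1, the last against 6 reads. HSP90B1 (2.37 ± 0.10) exceeded HSPA5 (2.05 ± 0.09) here, the reverse of their order in deficient against full medium.

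Together the 10 genes held 0.298% ± 0.0123 (SD, n = 3) of protein-coding signal in full medium and 0.262% ± 0.00868 in glucose-only medium. They held 1.09% ± 0.0125 in glutamine-only and 0.899% ± 0.0186 in deficient medium. HSPA5 and HSP90B1 made up 63.4% ± 0.654 of that in full medium, 66.9% ± 0.670 in glucose-only, 71.4% ± 0.570 in glutamine-only and 73.4% ± 0.182 in deficient medium. The share of CALR fell from 22.0% ± 0.579 of the 10 genes' signal in full medium to 12.4% ± 1.08 in deficient medium, as that of HSPA5 went from 16.7% ± 0.863 to 30.6% ± 0.910.

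**Figure D4:**
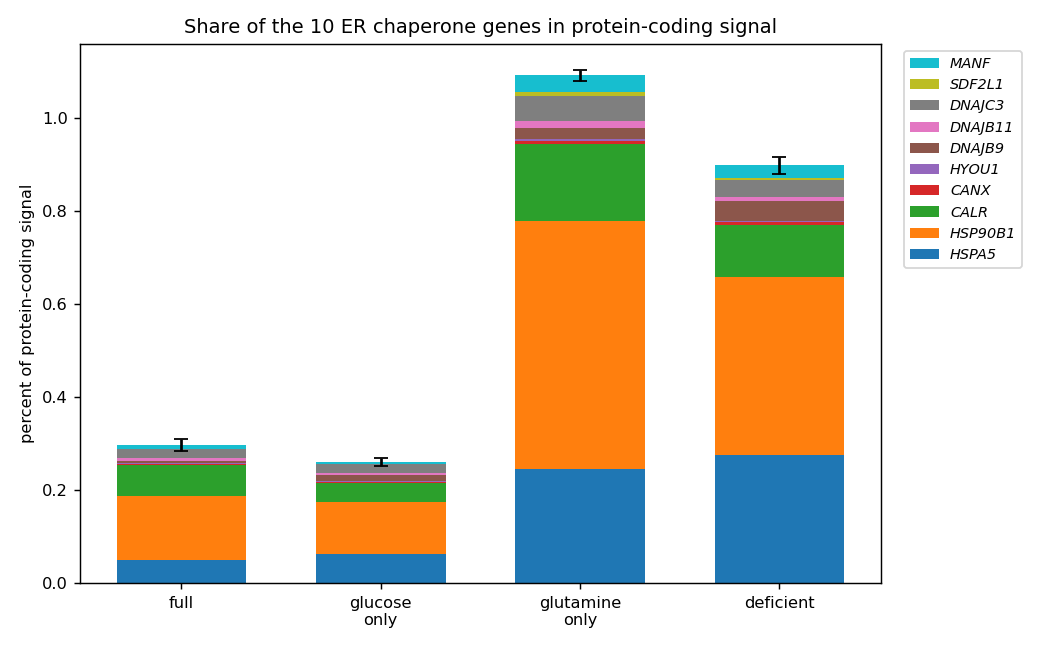
Share of protein-coding signal taken by the 10 ER chaperone genes (y axis, percent) in each medium, stacked by gene. Each bar is a mean of 3 libraries and its error bar the SD of the total. The totals are near 0.298% and 0.262% with glucose and near 1.09% and 0.899% without it.

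Levels of different genes were compared per kilobase of exon, over the union of a gene's exons in GENCODE release 29. In full medium HSP90B1 stood highest at 153 ± 9.14 normalized counts per kilobase, then CALR at 124 ± 3.08 and HSPA5 at 65.5 ± 3.92. DNAJC3 (18.5 ± 1.29) and MANF (16.5 ± 5.51) did not differ beyond their spread, and DNAJB9 followed at 8.88 ± 1.74. In glutamine-only medium HSP90B1 reached 587 ± 2.55, and HSPA5 (326 ± 8.10) and CALR (317 ± 6.48) were no longer apart beyond their spread. In deficient medium HSP90B1 was at 475.5 ± 20.8, HSPA5 at 409 ± 15.5 and CALR at 239 ± 14.9. There DNAJB9, at 88.0 ± 16.2, stood above MANF (64.5 ± 3.41) and DNAJC3 (37.5 ± 4.00). The values listed for DNAJB11, SDF2L1, CANX and HYOU1 were the 4 lowest in full medium, between 0.513 ± 0.342 for HYOU1 and 5.05 ± 0.548 for DNAJB11.

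CANX and DNAJB11 lie among genes with few reads. All 7 protein-coding neighbours of CANX within 100 kb averaged under 10 normalized counts, among them HNRNPH1 at 5.51 and SQSTM1 at 9.91, and so did all 5 neighbours of DNAJB11, the highest of them TBCCD1 at 7.79. Around HYOU1 it was 8 of 13, a share near the 60.1% of all protein-coding genes that averaged under 10. Its neighbours H2AX and C2CD2L averaged 89.5 and 45.7, while the ribosomal protein gene RPS25, which dividing cells use, was listed at 0 in all 12 libraries. Whether the low values listed for CANX, DNAJB11 and HYOU1 reflect low RNA was not tested. Exons of HSP90B1, DNAJB9, DNAJB11, CALR, CANX and HYOU1 overlap other annotated genes in GENCODE release 29, those of DNAJB9 the genes PNPLA8 and THAP5 on the opposite strand. The strand setting of the counting is not given in the sources used here, so reads from a gene and its opposite-strand partner cannot be told apart. PNPLA8 and THAP5 averaged 44.7 and 32.4 normalized counts, between 27.2 and 56.8 and between 23.1 and 47.4 over the 12 libraries, while DNAJB9 ranged from 19.7 to 299.

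Of the other genes of the pathway, lists of known function were counted in glutamine-only against full medium, where 10.8% of all genes were higher. Among ER disulfide isomerases and oxidases 8 of 17 tested were higher and 3 lower. PDIA4, an ER disulfide isomerase, went from 153 ± 7.14 to 635 ± 49.1 normalized counts, a rise of 2.04 ± 0.10. PDIA3, which works with CALR and CANX, rose by 1.70 ± 0.12 and PDIA6 by 1.23 ± 0.17. Where glutamine was absent, 3 of 17 were higher and 6 lower in glucose-only than in deficient medium, beside 20.1% and 23.2% of all genes. The interaction was higher for 0 and lower for 4 of them, beside 15.5% and 11% of all genes. PDIA4 was 1 of the 4, at -0.59 ± 0.14. In glutamine-only against deficient medium 10 of the 17 were higher and 0 lower, beside 19.9% and 21.6% of all genes, with PDIA4 higher by 0.83 ± 0.10 and PDIA3 by 0.85 ± 0.12, the same direction as CALR and HSP90B1.

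Among other ER folding factors 13 of 26 were higher and 0 lower on loss of glucose with glutamine present, including the CANX relative CLGN (0.93 ± 0.19), the glycoprotein folding sensor UGGT1 (0.77 ± 0.11) and HSPA13 (0.70 ± 0.14). Genes of ER-associated degradation, which removes misfolded proteins, counted 11 of 23 higher and 0 lower. HERPUD1 rose by 2.28 ± 0.13, SEL1L by 1.71 ± 0.11 and EDEM1 by 1.41 ± 0.11. Genes for translocation into the ER counted 14 of 22 higher and 0 lower, with SSR4 (1.07 ± 0.13), TRAM1 (1.00 ± 0.11) and SEC61A1 (0.85 ± 0.12). Of 10 mitochondrial counterparts tested, 2 were higher and 0 lower. In glucose-only against deficient medium 4 of the 26 folding factors were higher with glucose and 7 lower, beside 20.1% and 23.2% of all genes. The counts were 1 and 8 of 23 for degradation and 0 and 13 of 22 for translocation. CLGN was higher with glucose there, by 0.72 ± 0.19. The interaction was higher for 2 and lower for 7 folding factors, 1 and 6 degradation genes and 3 and 3 translocation genes.

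Among ER stress sensors and transcription factors 9 of 14 were higher and 0 lower in glutamine-only than in full medium, and 7 of 14 were higher and 0 lower in glucose-only than in full medium, where 9.44% of all genes were higher and 13.5% lower. ERN1, which encodes the IRE1 sensor, had 13.3 ± 2.33 normalized counts in full medium, 95.2 ± 18.7 in glucose-only, 61.5 ± 2.50 in glutamine-only and 113 ± 5.82 in deficient medium. XBP1, whose spliced form is made by IRE1, had 70.1 ± 8.05, 111 ± 19.8, 131 ± 2.77 and 300 ± 17.5 in the same order, rising on loss of either nutrient as DNAJB9 did. The table counts genes and does not tell spliced from unspliced XBP1. DDIT3, which encodes CHOP, rose by 2.52 ± 0.29 in glutamine-only and by 2.32 ± 0.29 in glucose-only medium, and TRIB3 by 3.32 ± 0.14 and 3.38 ± 0.14, each against the same full-medium libraries. PPP1R15A (GADD34), which reverses the translation block set by PERK, rose by 1.58 ± 0.11 and 1.76 ± 0.11. ATF4 rose by 0.80 ± 0.11 in glutamine-only and 0.65 ± 0.11 in glucose-only medium. EIF2AK3, which encodes PERK, rose by 1.03 ± 0.27 in glutamine-only medium (adjusted p = 0.00550) and was at -0.05 ± 0.27 in glucose-only medium. ATF6 passed in none of the 7 comparisons, with group means of 74.3 to 92.0.

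Over the 12 libraries, the log2 level of HSPA5 had a Pearson r of 0.952 with HSP90B1, 0.944 with MANF, 0.920 with DNAJC3 and 0.919 with DNAJB9, down to 0.574 with CANX. HSP90B1 was closest to MANF (0.985) and DNAJC3 (0.984), and its r with DNAJB9 was 0.770. These values describe 12 points that share 4 media and their libraries. Among 1212 genes with a mean of at least 100, those most like HSPA5 outside the 10 were GOLGA4 (r 0.976), RPL23 (0.974), EEF1A1 (0.967), HSPA6 (0.965) and E2F7 (0.960). The sizes of their changes were not alike. GOLGA4, a golgin, ran from 182 ± 4.96 in full to 320 ± 19.4 in deficient medium, and HSPA6, an inducible cytosolic HSP70, from 0.612 ± 1.06 to 1128 ± 17.1.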

How the data were processed

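Gene-level values for 12 total RNA libraries of MDA-MB-231 cells, depleted of ribosomal RNA and made with a stranded kit per the labels' protocols, were taken from the deposited table. Its values are a signal: whole reads of a gene that the authors had divided by a library size factor, as read from the deposited values, 100% of which were whole multiples of 1 step within 0.01 reads. They are called normalized counts. FastQC, HISAT2, Subread and DESeq2 and the build GRCh38.p14 are named per the submitters' processing notes. Versions, annotation and strand setting are not given in the sources used here.

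Genes with a value of at least 10 in at least 3 libraries were tested with limma 3.58.1 (R 4.3.3) with a variance trend on log2(value + 1), 1 model with a mean per medium and Benjamini-Hochberg adjustment. Fold changes on this scale understate those of low genes. The 95% intervals use the moderated variance. Alternatives were another pseudocount, filter, scaling, prior or threshold, a replicate block, edgeR 4.0.16 and DESeq2 1.42.0 on the recovered reads, and each library left out. An alternative with size factors from nuclear protein-coding genes was chosen after seeing the data. The fit was also run on simulated data, with changes placed in deficient medium only and a common dispersion for all genes. Only deficient against full medium was read there, so the simulation does not cover the other comparisons or the interaction.

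The 10 genes and the lists were chosen with earlier results of these data known. Besides the 10, the text names up to 3 genes per list with the largest change in glutamine-only against full medium among those called with a mean of at least 50, fixed paralogs and sensors, and the 5 genes of mean at least 100 most correlated with HSPA5. CRELD2, ERO1B, FICD, SERP1, NUCB1, EIF2A, SHCBP1, GYS1 and PLS3, and the neighbouring or overlapping genes, fall outside that rule and were named after their values were seen. Promoter windows are RefSeq's, and exon lengths and overlaps come from an older annotation, GENCODE release 29. All 10 genes matched a window. Per-library values were compared with sampling noise: chi-square per degree of freedom between libraries of a medium was 1.21 to 7.10, and no library was a copy of another.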

Additional observations from a re-analysis of the deposited data

Results flagged for a closer look

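In CALR and HYOU1 the test of the interaction passed under the authors' size factors. That was 1 of the 10 genes higher and 1 lower, against 15.5% and 11% of all genes. HYOU1 passed the filter only through libraries without glucose, so its interaction rests on a gene admitted by its high values there. For CALR the rise on loss of glucose was larger without glutamine, by 0.39 in log2, from 1.35 with glutamine to 1.74 without it. That call was lost with edgeR (adjusted p = 0.0719), DESeq2 (0.155), equal totals (0.167) and a constant prior variance (0.137), and the CALR interaction was -0.03 after quantile normalization. For HYOU1 it was smaller without glutamine, by an interaction of -1.76, from 2.86 with glutamine to 1.10 without it. That call too was lost with edgeR (adjusted p = 0.0925), DESeq2 (0.137) and a constant prior variance (0.1005). HYOU1 rests on 15 reads in the 3 full-medium libraries and 14 in the 3 glucose-only libraries, and on 20 of 38 reads in library A of the deficient medium.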

How the results depend on the processing

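In the 4 comparisons of a medium without glucose with one that held it, all 788 alternative values of the 8 genes other than CANX and HYOU1 kept their direction and side of the threshold. CANX and HYOU1 are left out of that number, and their calls did move in glucose-only against deficient and in deficient against full medium. SDF2L1, which passed the filter only through media without glucose, is among the 8. Many of the 788 could hardly change, since leaving out a library outside a comparison leaves its log2 change as it was. The number of the 10 genes called was 5 in each of the 4 comparisons with a mean of at least 100 required, because only 5 were then tested. Leaving out 1 library gave 8 to 9 in glucose-only against deficient medium and 9 in the other 3. In glucose-only against full medium 6 were called, 3 with the 2 groups alone, a constant prior variance or DESeq2, and 4 to 6 with a library left out. Over all 9270 genes 2124 were called there, and 2038, 1672 and 1255 with those 3 settings in turn. In glutamine-only against deficient medium 7 of the 10 were called, 4 with a constant prior variance or an adjusted p under 0.01, and 5 to 7 with a library left out. Over all 9270 genes 3844 were called there, and 3477 and 2629 with those 2 settings in turn. The interaction was called for 2 of the 10 genes. It was called for 1 under equal totals, protein-coding size factors, no filter or a mean of at least 100. With a constant prior variance, edgeR, DESeq2 or an adjusted p under 0.01 it was called for 0. After quantile normalization it was called for 3 (HSPA5, HYOU1 and DNAJC3, without CALR), and for 0 to 3 with a library left out. Over all 9270 genes the interaction was called for 2458, and for 2312 after quantile normalization. A constant prior variance, edgeR, DESeq2 and an adjusted p under 0.01 gave 2059, 2524, 1495 and 1496.

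Direction changed in 21 of 1705 values, and 1 of them had been called, the CALR interaction (-0.0308 after quantile normalization). There HSPA5 gave -0.45 and HSP90B1 -0.23, and HSPA5 -0.0063 with equal totals. With a pseudocount of 8 the interaction was 0.0828 for DNAJB9 and -0.14 for SDF2L1. CANX was 0.0018 with DESeq2 and 0.0148 with protein-coding size factors in glucose-only against full medium, and 0.13 with equal totals in glutamine-only against deficient medium. With a library left out it ran from -0.24 to 0.10 and from -0.489 to 0.0579 there, and from -0.0409 to 0.506 in the interaction. Likewise HYOU1 ran from -0.073 to 0.823 in glucose-only against full medium, and the interaction from -0.20 to 0.10 for DNAJB9 and from -0.11 to 1.07 for SDF2L1. The causes were not tested.

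Libraries with the same letter were not shown to pair: their deviations correlated at -0.36 to 0.54 over 18 pairs, 7 of them over 0.1, and 7 of 12 libraries correlated best with their own letter. With a replicate block the numbers called were 9, 9, 6, 7, 9, 9 and 2, the same as without it.

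Over all genes, an adjusted p under 0.01 or a mean of at least 100 lowered the counts by construction. DESeq2 called 1255 genes against 2124 in glucose-only against full medium, 604 against 1234 in glutamine-only against glucose-only medium (817 with a constant prior variance) and 1495 against 2458 for the interaction. The depth limits CANX, HYOU1 and SDF2L1, with 49 to 89, 14 to 99 and 6 to 134 reads per medium.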

Other observations

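The ER stress elements searched in promoters were also in 20 tested genes outside the 10. In glutamine-only against full medium 9 of these 20 were higher and 3 lower, with a median of 0.56, beside 5 higher of the 6 chaperone genes that hold an element and 10.8% of all genes. The higher ones include ERO1B, an ER oxidase gene (2.81 ± 0.28), CRELD2, an ER protein with disulfide isomerase activity (2.75 ± 0.48), HERPUD1 (2.28 ± 0.13), FICD, which modifies HSPA5 protein by AMPylation (1.73 ± 0.27), PDIA6 (1.23 ± 0.17), NUCB1 (0.97 ± 0.18), SERP1 (0.97 ± 0.14) and XBP1 (0.90 ± 0.12). EIF2A (0.63 ± 0.16) was higher as well. The 3 lower ones were SHCBP1 (-1.465 ± 0.31), GYS1 (-0.75 ± 0.22) and PLS3 (-0.48 ± 0.12), and the rest did not pass. These genes were listed after their values were seen, and no test of the set was made. The 4 chaperone genes without a match to either element, DNAJB9, DNAJB11, DNAJC3 and MANF, rose by 1.43 to 2.23 in the same comparison. Of the 6 with a match, SDF2L1 and HYOU1 passed the filter only through media without glucose. Among the rest, HSPA5, HSP90B1 and CALR were higher and CANX did not pass. Only exact letters within the promoter windows were searched, so copies with other letters or farther away would be missed.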
